A study of Homo sapiens with 3 samples.

Results

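The BCL2 family decides at the mitochondrion whether a stressed cell lives or dies. Its transcripts were examined in KYSE140 cells, which were grown out of a human esophageal squamous cell carcinoma, after siRNA against the homeobox gene DLX5. Members were taken by symbol: BCL2, BCL2L1, MCL1 and BCL2A1 on the pro-survival side, BAX and BAK1 as pro-death effectors, and BBC3, PMAIP1, BCL2L11 and BID as pro-death BH3-only genes. All 10 were found among the 19266 genes of the table. Of these, 9 reached 1 FPKM in at least 1 sample (FPKM, fragments scaled to transcript length and to the reads mapped) and were among the 12078 genes tested, and BCL2A1 did not.

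Pro-survival proteins such as BCL2, BCL-XL (from BCL2L1) and MCL1 hold BAX and BAK in check, and BAX and BAK, once released, open pores in the outer mitochondrial membrane. Cytochrome c then leaves the mitochondrion and caspases are activated. BH3-only proteins are the sensors: they bind the pro-survival proteins and in some cases activate BAX and BAK directly, and many carcinoma lines depend on MCL1, on BCL-XL or on both.

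The series compared 1 sample of KYSE140 cells carrying a negative control with 2 samples in which DLX5 was knocked down, 1 with siRNA1 and 1 with siRNA2. All were grown in RPMI1640 with 10% FBS, and the line stands for a single tumor. The series' design text names retina and triplicates, which the sample labels do not. Each sample had 2 replicate columns of FPKM with no label of their own, so an SD given here is the spread over replicate columns, which may be technical, and a sample counts as 1 value (n = 1 control against n = 2 siRNA). DLX5 read 13.0 FPKM in the control, 3.63 with siRNA1 and 3.25 with siRNA2, a log2 fold change of -1.66 (limma, adjusted p = 0.0210). With every gene kept whatever its FPKM, DLX5 no longer passed (adjusted p = 0.320), nor did it after quantile normalization (adjusted p = 0.0531). Squamous markers were present: all 10 were tested, 5 fell and 5 did not pass. Their summed FPKM was 10621 in the control, 4358 with siRNA1 and 4230 with siRNA2, most of it KRT5, KRT6A and KRT17. KRT5, a basal keratin, read 3127, 1228 and 1274 FPKM. SOX2, a squamous lineage factor chosen after its values were seen, read 211.5, 272.3 and 276.8. Leukocyte markers summed to between 6.84 and 10.50 FPKM, with CD3E given no value. Fibroblast markers summed to between 7.63 and 15.9, nearly all of it COL1A1, and retinal markers to between 1.79 and 2.24. The part of these marker differences in the results on the BCL2 family was not tested, and in bulk RNA fewer cells of a type and less RNA per cell cannot be told apart.

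None of the 9 members tested passed the test across all genes (limma on log2(FPKM + 1), Benjamini-Hochberg adjusted p under 0.05), in either direction. Of all genes tested, 1.67% passed as lower and 1.42% as higher. The lowest adjusted p-values were those of PMAIP1 (0.0559), BCL2L11 (0.121) and MCL1 (0.129). These 3 had an unadjusted p under 0.05, all as lower, against 10.1% of all genes lower and 9.45% higher by that rule. The median log2 fold change of the 9 was -0.20, beside 0.01 over all genes. By role, the medians were -0.47 for the 3 pro-survival genes, 0.05 for the 2 effectors and -0.41 for the 4 BH3-only genes.

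PMAIP1, BCL2L11 and BID had all 4 siRNA columns below both control columns, as did 26.8% of all genes tested. The columns of BBC3, the other BH3-only member, overlapped those of the control. The promoters of PMAIP1 and BCL2L11 are shown because these 2 were the members at least 1.5-fold lower with each siRNA. The sequences are the 250 bases before the annotated start site, from RefSeq (GRCh38.p14, a later build than the hg19 of the table), 5′ to 3′ on the gene's strand, both of which are plus. They span chr18:59899746-59899995 for PMAIP1 and chr2:111120664-111120913 for BCL2L11. Capitals mark the motifs found by search.
PMAIP1: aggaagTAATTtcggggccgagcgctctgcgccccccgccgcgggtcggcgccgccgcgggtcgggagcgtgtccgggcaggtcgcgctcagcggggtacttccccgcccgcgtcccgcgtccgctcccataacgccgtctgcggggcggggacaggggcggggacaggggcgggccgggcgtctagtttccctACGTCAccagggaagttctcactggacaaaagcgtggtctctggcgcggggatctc
BCL2L11: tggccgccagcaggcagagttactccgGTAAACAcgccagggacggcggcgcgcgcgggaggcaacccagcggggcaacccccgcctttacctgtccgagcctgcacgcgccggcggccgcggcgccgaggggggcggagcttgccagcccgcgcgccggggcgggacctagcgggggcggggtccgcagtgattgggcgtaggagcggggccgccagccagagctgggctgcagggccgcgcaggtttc
In PMAIP1 the capitals are the homeodomain core TAATT, at bases -244 to -240 from the start site, and the ATF/CREB core TGACGT, which lies on the minus strand and reads ACGTCA here, at -56 to -51. In BCL2L11 they are the FOXO motif GTAAACA at -223 to -217. Each motif was searched on both strands of windows holding 250 bases before and 50 after a start, and these matches do not overlap. Of all 35116 such windows, 24.8% held TAATT, 7.98% TGACGT and 3.42% GTAAACA. Of the members, 9 had an entry in the promoter table, with 14 windows, and MCL1 had none, so its promoter was not searched. TAATT was also found for BCL2A1 and BID, and the E-box CACGTG, held by 7.26% of all windows, for BAX, BBC3 and BID. A match describes the letters of a window and is not a binding site.

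PMAIP1 (Entrez 5366, hg19 chr18:57567192-57571538, plus strand) encodes NOXA, a BH3-only protein that binds MCL1 and hastens its degradation. It read 11.9 and 12.6 FPKM in the control columns, 6.96 and 5.68 with siRNA1, and 6.69 and 5.09 with siRNA2. All 4 siRNA columns lay below both control columns, with a wide gap. Sample means were 12.2 ± 0.460, 6.32 ± 0.905 and 5.89 ± 1.13 FPKM (SD over columns), so the siRNA1 sample was 1.93-fold and the siRNA2 sample 2.08-fold below the control. The log2 fold change was -0.90 ± 0.17 (SE), the largest in size of the 9, with an unadjusted p of 0.00188 and an adjusted p of 0.0559 (limma). Over the alternative limma fits that keep 1 value per sample, the adjusted p ran from 0.0612 to 0.320. About 406 to 432 reads per control column and 176 to 240 per siRNA column stood behind these values, by an estimate from the spacing of low FPKM values.

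BCL2L11 (Entrez 10018, hg19 chr2:111878491-111926022, plus strand) encodes BIM, a BH3-only protein that binds all the main pro-survival proteins. Its control columns read 6.02 and 6.10 FPKM, those of siRNA1 3.35 and 3.71, and those of siRNA2 3.37 and 3.84. The siRNA samples overlapped each other and not the control. Means were 6.06 ± 0.0566, 3.53 ± 0.255 and 3.61 ± 0.332 FPKM, 1.72-fold and 1.68-fold lower than the control. The log2 fold change was -0.63 ± 0.17 (limma, adjusted p = 0.121).

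BID (Entrez 637, hg19 chr22:18216906-18257431, minus strand) links death receptors to mitochondria once caspase-8 has cut it. Its columns read 37.3 and 37.9 FPKM in the control, 34.3 and 32.6 with siRNA1, and 31.0 and 33.0 with siRNA2. The siRNA columns lay below the control by a small margin, and the log2 fold change of -0.19 ± 0.15 did not pass (limma, adjusted p = 0.543).

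BBC3 (Entrez 27113, hg19 chr19:47724079-47736023, minus strand) encodes PUMA, a p53 target that binds all pro-survival members. It was the lowest of the tested members, at 1.75 and 1.45 FPKM in the control, 1.19 and 1.77 with siRNA1, and 1.95 and 1.19 with siRNA2. The columns of the 3 samples overlapped fully. An estimated 39 to 66 reads stood behind each column. The log2 fold change was -0.04 ± 0.17 (adjusted p = 0.921), so no difference was detectable at this depth.

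**Figure D1:**
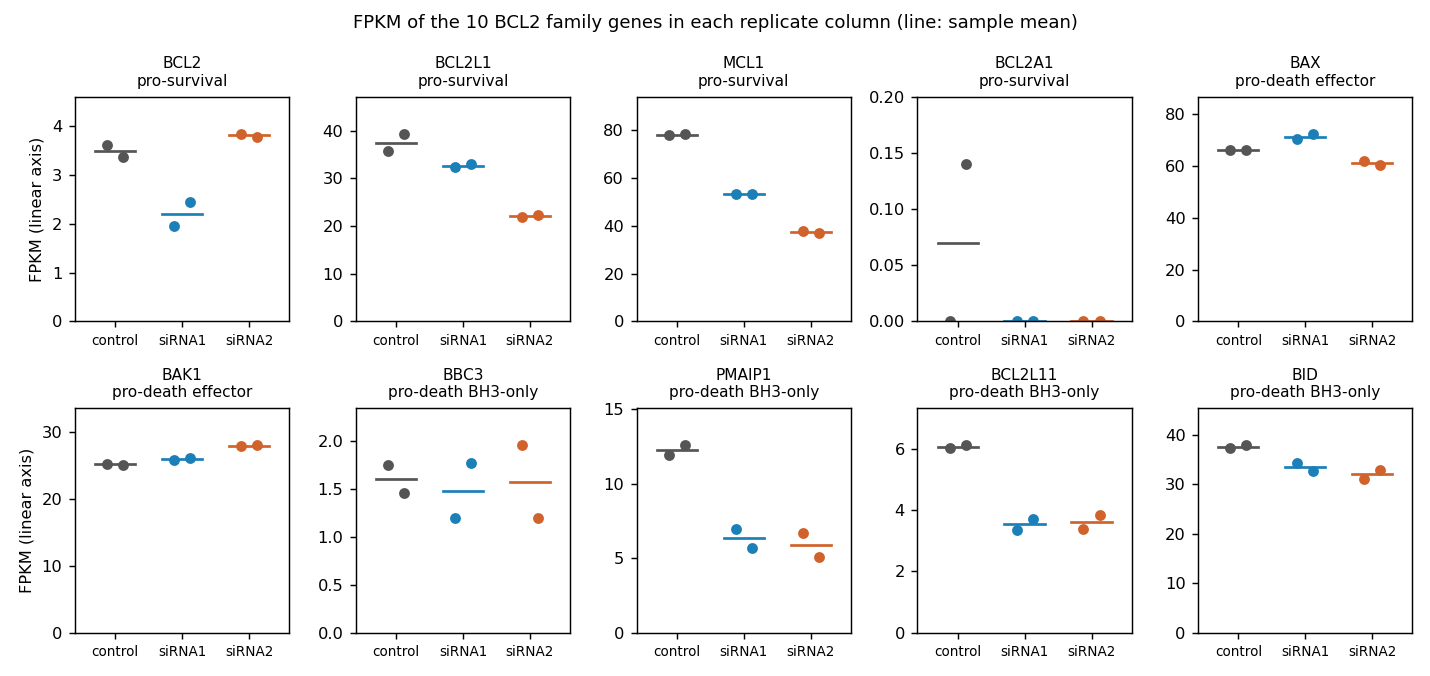
FPKM (linear axis, each panel with its own scale) of the 10 members in the control, siRNA1 and siRNA2, with points for the replicate columns and a line for the sample mean. PMAIP1 and BCL2L11 sit at like levels with both siRNAs, at 5.89 to 6.32 and 3.53 to 3.61 FPKM, whereas MCL1 and BCL2L1 are lower with siRNA2 than with siRNA1 and BCL2 is low with siRNA1 alone.

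MCL1 (Entrez 4170, hg19 chr1:150547027-150552214, minus strand), a short-lived protein that holds BAK and binds NOXA and BIM, had the highest FPKM of the 10 in the control, above 92.3% of the genes tested. Its columns read 77.7 and 78.2 FPKM in the control, 53.1 and 53.3 with siRNA1, and 37.6 and 36.8 with siRNA2. The 3 samples did not overlap, and the columns of a sample lay within 1 FPKM of each other. The mean of MCL1 stood 1.47-fold below the control with siRNA1, and 2.10-fold below it with siRNA2. Its log2 fold change over both siRNAs was -0.80 ± 0.23 (limma, unadjusted p = 0.0120, adjusted p = 0.129). It was -0.54 with siRNA1 alone and -1.05 with siRNA2 alone. The SE draws on the gap between the siRNAs, which was wide for MCL1, and on the spread of all genes (1 residual and 5.16 prior degrees of freedom).

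BCL2L1 (Entrez 598, hg19 chr20:30252255-30311802, minus strand) encodes BCL-XL and, by splicing, the short pro-death BCL-XS, which a value per gene does not separate. It read 35.7 and 39.3 FPKM in the control columns, 32.3 and 32.9 with siRNA1, and 21.8 and 22.2 with siRNA2. The siRNA1 columns lay just below the control and the siRNA2 columns far below. Its mean was below that of the control by 1.15-fold with siRNA1 and by 1.70-fold with siRNA2. The log2 fold change was -0.47 ± 0.24 over both (limma, adjusted p = 0.365), -0.19 with siRNA1 and -0.74 with siRNA2.

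BCL2 (Entrez 596, hg19 chr18:60790579-60986613, minus strand), the founding pro-survival gene, was low in these cells, above only 19.3% of the genes tested in the control. It read 3.62 and 3.37 FPKM in the control, 1.95 and 2.44 with siRNA1, and 3.84 and 3.79 with siRNA2. The siRNA1 columns lay below the control, and the siRNA2 columns above it. The log2 fold change over both siRNAs was -0.20 ± 0.27 (limma, adjusted p = 0.747), with -0.49 for siRNA1 and 0.10 for siRNA2. BCL2A1 (Entrez 597, hg19 chr15:80253232-80263643, minus strand), a pro-survival gene best known from leukocytes and a target of NF-kappaB, read 0 and 0.14 FPKM in the control columns, an estimated 0 and 2 reads. It is listed at 0 with both siRNAs, and no fold is given.

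The effectors differed little from the control. BAX (Entrez 581, hg19 chr19:49458117-49465055, plus strand), which moves from the cytosol into the outer membrane when activated, read 66.3 FPKM in both control columns, 70.3 and 72.3 with siRNA1, and 62.0 and 60.3 with siRNA2. The siRNA samples lay on opposite sides of the control, and the log2 fold change was -0.01 ± 0.16 (limma, adjusted p = 0.987). BAK1 (Entrez 578, hg19 chr6:33540323-33548070, minus strand), whose protein resides in that membrane, read 25.33 and 25.04 FPKM in the control, 25.9 and 26.2 with siRNA1, and 28.0 in both columns of siRNA2. It was the only member whose 4 siRNA columns lay above both control columns, by 1.11-fold at most in the means, and its log2 fold change was 0.10 ± 0.16 (adjusted p = 0.790).

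Counted over replicate columns, 5 of the 9 members (BCL2L1, MCL1, PMAIP1, BCL2L11 and BID) had all 4 siRNA columns below both control columns and 1 (BAK1) had them above. Of all genes tested, 26.8% lay below in this way and 31.0% above. By size with siRNA1, 3 of the 9 (BCL2, PMAIP1 and BCL2L11) were at least 1.5-fold lower in FPKM, against 11.8% of all genes, and none was 1.5-fold higher, against 8.24%. With siRNA2, 4 of the 9 (BCL2L1, MCL1, PMAIP1 and BCL2L11) were at least 1.5-fold lower, against 9.33% of all genes, and none was higher, against 6.64%. Both counts share the control sample. PMAIP1 and BCL2L11 were the members in both.

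**Figure D2:**
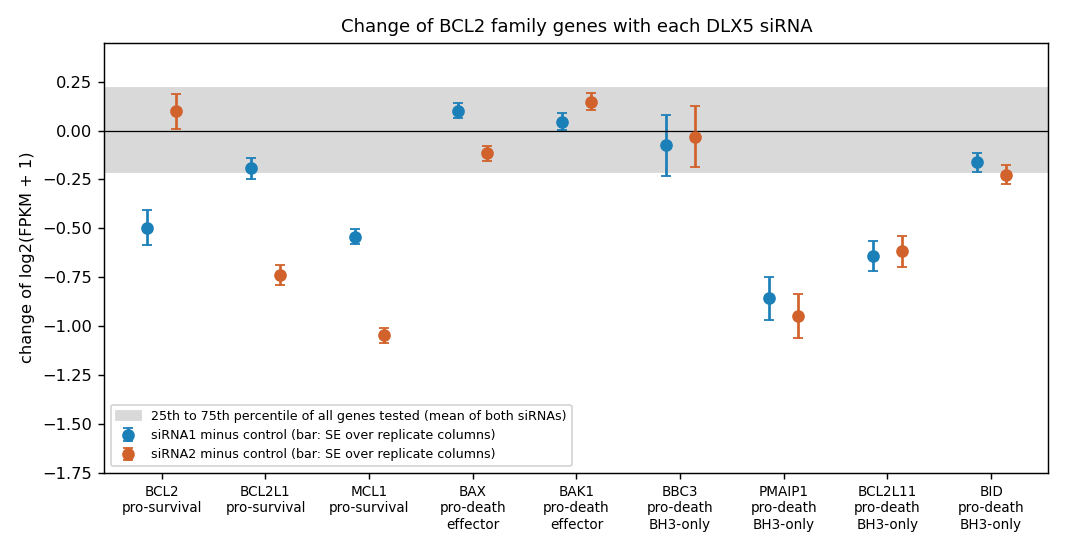
Change of log2(FPKM + 1) from the control with siRNA1 (blue) and siRNA2 (orange) for the 9 members tested, with bars for the SE over replicate columns and a grey band for the 25th to 75th percentile of all genes tested. PMAIP1, BCL2L11 and MCL1 lie below the band with both siRNAs. BCL2L11 stays above the 5th percentile of all genes tested, which is -0.76 with siRNA1 and -0.69 with siRNA2. MCL1 lies at -0.54 and -1.05, and BCL2, in this fit over columns, at -0.50 and 0.10.

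The siRNAs were also compared with each other, over replicate columns (limma across all genes, added after the data were examined), a test whose spread is that within samples only. By it, 3 of the 9 members were lower with siRNA2 than with siRNA1 (BCL2L1, MCL1 and BAX), against 21.1% of all genes, and 1 was higher (BCL2), against 19.4%. These are 3 pro-survival genes and 1 effector, in a comparison of 1 sample with 1 sample that called a large share of all genes. MCL1 differed by -0.51 ± 0.04 on the log2 scale (adjusted p = 8.82e-06). PMAIP1 differed by -0.09 ± 0.11 (adjusted p = 0.544) and BCL2L11 by 0.02 ± 0.08 (adjusted p = 0.841).

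Because FPKM is scaled to length, the members of each side can be summed. The sums hold only the 10 members and not the other family genes tested. Left out, for example, were BCL2L2 and BOK, multidomain family genes chosen after their values were seen. BCL2L2 read 15.315 FPKM in the control, 19.025 with siRNA1 and 16.74 with siRNA2, above the control with both. BOK read 15.345, 11.215 and 14.04 FPKM, below the control with both. Also left out were BAD, near the control with both siRNAs, and BMF and BIK, with lower means with both. What the ratio would be with these genes was not tested. Pro-survival FPKM summed to 119.0 in the control, 88.0 with siRNA1 and 63.0 with siRNA2, while pro-death FPKM summed to 148.9, 142.1 and 132.2. The ratio of pro-survival to pro-death FPKM was 0.799 ± 0.0157 in the control, 0.619 ± 0.0058 with siRNA1 and 0.477 ± 0.0022 with siRNA2 (SD over columns). The columns of the 3 samples did not overlap. The ratio is given as a description, and no test was run on it.

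MCL1 was the largest pro-survival component. It made up 65.5% of the pro-survival sum in the control, 60.4% with siRNA1 and 59.0% with siRNA2, and the ratio relative to the control was 0.775 with siRNA1 and 0.597 with siRNA2. With MCL1 and BAX, the most abundant member of each side, left out, it was 0.989 and 0.732. With each member given equal weight, as a geometric mean of FPKM + 1, it was 0.953 and 0.900. On the pro-death side the BH3-only genes summed to 57.4 FPKM in the control, 44.8 with siRNA1 and 43.1 with siRNA2, and the effectors to 91.5, 97.3 and 89.1.

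Quotients of known binding partners were taken for 5 pairs. FPKM of MCL1 over that of BAK1, which MCL1 holds, was 3.10 ± 0.0392 in the control, 2.04 ± 0.0112 with siRNA1 and 1.33 ± 0.0202 with siRNA2. BCL2L1 over BAX was 0.565 ± 0.0375, 0.458 ± 0.0034 and 0.360 ± 0.0120. These quotients were lower with siRNA1 than in the control and lower again with siRNA2, by more than the spread of their columns. BCL2L1 over BAK1 went the same way, at 1.49 ± 0.112, 1.25 ± 0.0043 and 0.787 ± 0.0094. MCL1 over PMAIP1 was 6.38 ± 0.211, 8.42 ± 1.25 and 6.31 ± 1.15, so siRNA2 stood within its SD of the control. MCL1 over BCL2L11 was 12.9 ± 0.0617, 15.1 ± 1.04 and 10.3 ± 1.10, above the control with siRNA1 and below it with siRNA2. These are quotients of RNA levels and say nothing of the proteins.

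**Figure D3:**
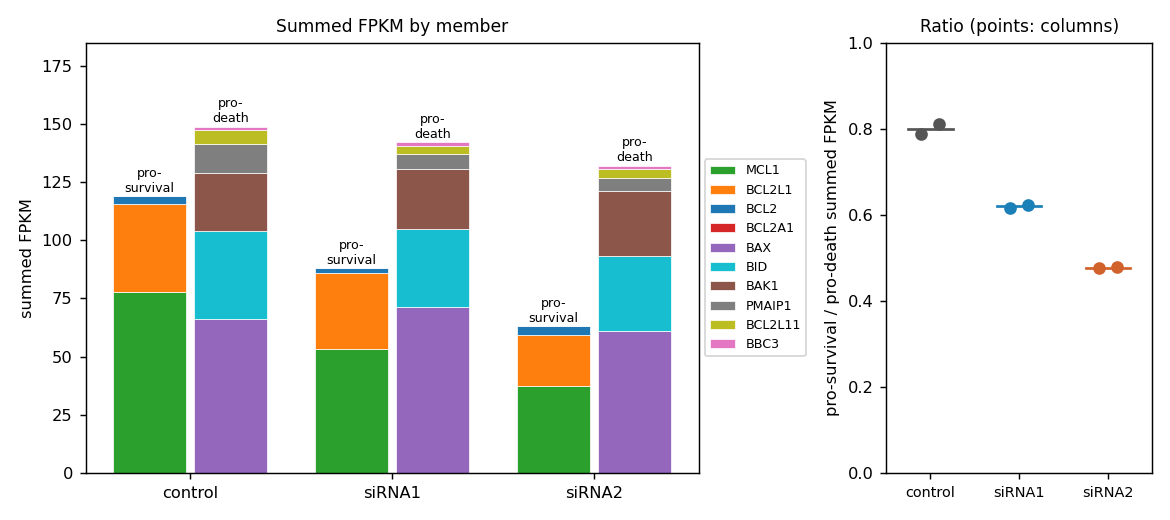
Left, FPKM summed over the 4 pro-survival and the 6 pro-death members in each sample, stacked by member. Right, the pro-survival to pro-death ratio, with points for replicate columns and lines for means, at 0.799, 0.619 and 0.477. The MCL1 block differs most between samples.

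The order of FPKM also differed. In the control it ran MCL1, BAX, BID, BCL2L1, BAK1, PMAIP1, BCL2L11, BCL2, BBC3 and BCL2A1. BID (37.6) and BCL2L1 (37.5) were within their columns' spread, and every other pair of neighbours was apart by more than that. With siRNA1 BAX (71.3) stood above MCL1 (53.2), and BID (33.5) and BCL2L1 (32.6) again overlapped. With siRNA2 BAX was at 61.1 and MCL1 at 37.2 FPKM, BAK1 (28.0) had passed BCL2L1 (22.03), and BCL2 (3.82) and BCL2L11 (3.61) overlapped.

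For BCL2, the FPKM values and the authors' own fold change did not match. The log2 ratio of FPKM, with no pseudocount, was -0.67 for siRNA1 and 0.13 for siRNA2, whereas the authors' deposited table gives log2 fold changes of -0.22 (q = 0.0143) and 0.51 (q = 4.89e-10). The gaps of -0.45 and -0.39 rank 4 and 7 in size among 12073 and 12074 genes. A gap over 0.2 occurred in 59 genes (0.489%) with siRNA1 and 51 (0.422%) with siRNA2, and in none of the 4749 and 4750 genes listed with 1 transcript. BCL2 is listed with 2 transcripts, the longer of 6492 bases, and the part that transcript choice has in the gap was not tested. BCL2 was thus lower with siRNA1 and higher with siRNA2 by both measures, but not by like amounts. For the other members the largest gap was 0.0643.

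For the remaining members the authors' deposited table gives values near the FPKM ratios: -0.95 and -1.05 for PMAIP1, -0.84 and -0.81 for BCL2L11, -0.55 and -1.07 for MCL1, and -0.20 and -0.77 for BCL2L1 with siRNA1 and siRNA2. The authors' q-values in the deposited table compare 1 sample with 1 sample and not conditions. Against the control they run from 0 as listed (MCL1 with siRNA2) and 1.01e-148 (MCL1 with siRNA1) to 0.410 (BBC3 with siRNA2).

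**Figure D4:**
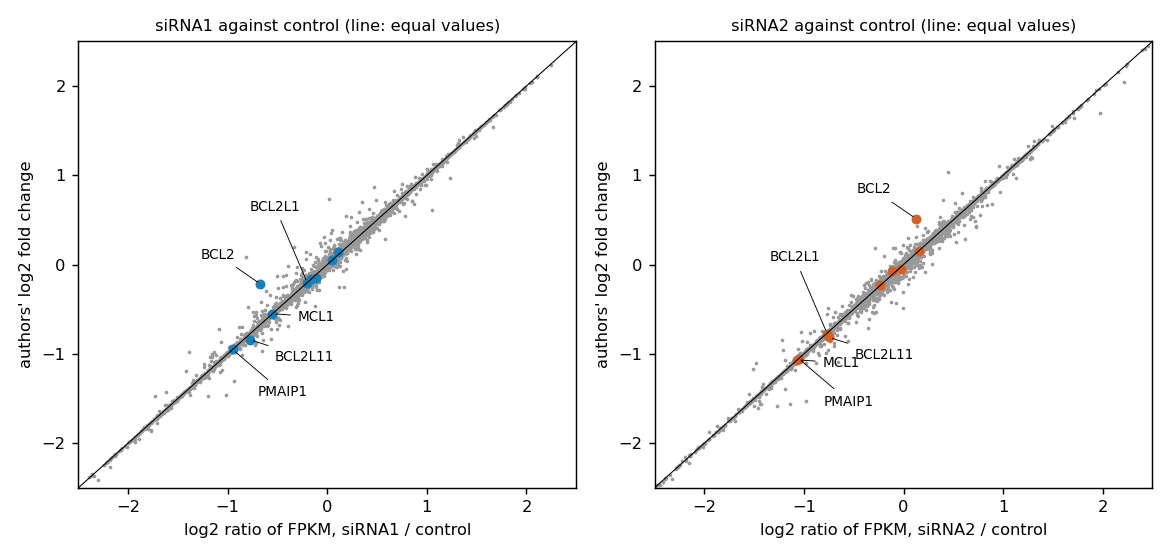
Log2 ratio of FPKM to the control (x axis) against the authors' log2 fold change (y axis) for siRNA1 (left) and siRNA2 (right), with grey points for all genes tested, colored points for members and a line of equal values. BCL2 lies above the line, at a ratio minus fold change of -0.45 and -0.39, and the other members lie within 0.0643 of it.

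Other genes of the pathway were read from 8 lists holding 76 genes, of which 69 were tested, 1 rose and 1 fell, a share near the 1.42% and 1.67% of all genes. Both were inhibitor of apoptosis genes, a list of 7 with 5 tested. BIRC5, which encodes survivin, a mitotic protein also classed with the caspase inhibitors, rose: it read 28.7 FPKM in the control, 67.1 with siRNA1 and 61.6 with siRNA2 (limma, 1.14 ± 0.15 on the log2 scale, adjusted p = 0.0247). BIRC3, encoding cIAP2, a ubiquitin ligase of TNF receptor complexes, fell, with 5.95 FPKM in the control, 1.04 with siRNA1 and 1.81 with siRNA2 (-1.54 ± 0.24 on the log2 scale, adjusted p = 0.0335). Both calls were lost after quantile normalization (adjusted p = 0.0579 and 0.0738) and without the filter (adjusted p = 0.320 for each), and that of BIRC3 with a pseudocount of 0.1 (adjusted p = 0.0507).

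No other list held a gene past the test, and the genes given here are from the 2 most abundant of each. Of 4 other multidomain family genes tested (list median log2 fold change 0.15), BCL2L12 read 37.1, 40.9 and 38.6 FPKM in the control, siRNA1 and siRNA2, and BCL2L13, a mitochondrial outer membrane protein, read 17.1, 19.5 and 20.8. Of 8 other BH3-only and BNIP genes (median -0.08), BAD, a BH3-only protein controlled by phosphorylation, read 35.57, 36.03 and 36.78, and BECN1, an autophagy protein with a BH3 region, 22.3, 36.2 and 29.8. That list mixes BH3-only genes with BNIP genes and BECN1. Chosen after their values were seen, the BH3-only genes BMF and BIK read 1.75, 1.23 and 0.545 FPKM and 5.39, 4.46 and 4.23, and neither passed (log2 fold changes of -0.56 and -0.26, adjusted p = 0.290 and 0.482).

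Downstream of the pore, the apoptosome list (11 tested, median 0.08) was led by the channel genes VDAC2, at 194.6, 198.0 and 190.3 FPKM, and VDAC1, at 181.9, 143.8 and 175.4. Of 9 genes for caspases and their nuclease (median 0.00), DFFA, the inhibitor of the caspase-activated nuclease, read 27.1, 20.7 and 29.9. Chosen after their values were seen, CYCS, which encodes cytochrome c, read 65.6, 103.1 and 108.6 (adjusted p = 0.0605), and APAF1, the apoptosome scaffold, 6.97, 3.56 and 6.31. APAF1 was thus low with siRNA1 and nearer to the control with siRNA2.

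Upstream, the death receptor list (7 tested, median -0.27) was led by FADD, the adaptor of caspase-8, at 82.2, 95.7 and 104.3 FPKM, and CFLAR, which encodes the caspase-8 inhibitor FLIP, at 27.4, 26.2 and 26.1. TNFRSF10B, the TRAIL receptor DR5, was chosen after its values were seen. It read 37.76, 20.96 and 16.43 FPKM and missed the threshold (adjusted p = 0.0572). Of 10 genes acting on family protein stability and binding (median -0.16), TMBIM6 read 330.1, 349.9 and 327.4 and TPT1 262.6, 229.2 and 241.9. Of 15 transcription factors (median -0.13), ATF4, of the integrated stress response, read 200.3, 236.3 and 271.2, and TP63, the squamous lineage factor, 92.1, 90.6 and 79.4.

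**Figure D5:**
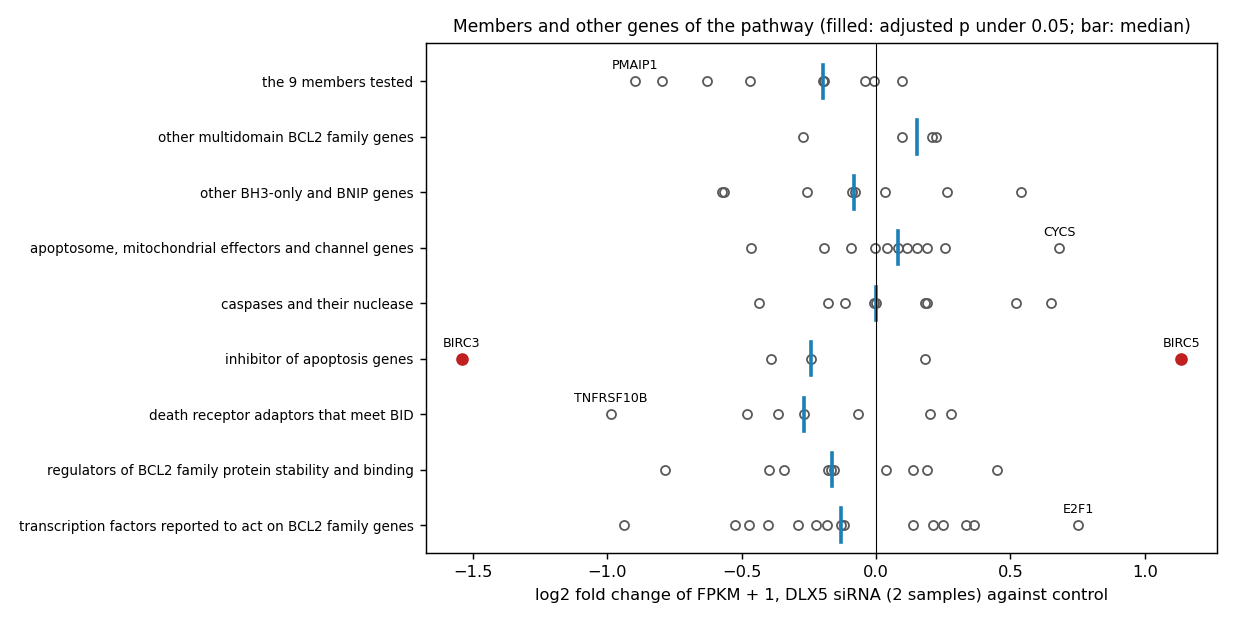
Log2 fold change (DLX5 siRNA against control, of FPKM + 1) of the 9 members tested and of each gene tested in the 8 pathway lists, 1 line per list, with a blue bar for the median and filled points for an adjusted p under 0.05. BIRC3 and BIRC5 are the filled points, at -1.54 and 1.14, and symbols are printed for genes with an adjusted p under 0.10.

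PMAIP1 had the largest mean change of the members, and the 3 genes with the nearest pair of changes were sought among the 8852 genes averaging 5 FPKM or more. By Euclidean distance on the log2(FPKM + 1) changes over 3 samples they were LEPROTL1 (0.0376), ZSCAN25 (0.0423) and RFLNB (0.0514). LEPROTL1 read 16.3, 8.52 and 8.25 FPKM, ZSCAN25 12.6, 6.35 and 6.20, and RFLNB 12.04, 6.35 and 5.59. With 3 samples, such likeness describes these values only.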

How the data were processed

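RNA of 1 control and 2 DLX5 siRNA samples of KYSE140 cells was sequenced. The authors deposited FPKM per gene in 2 replicate columns and as a mean, per the file headers, with their log2 fold changes and q-values (DEGseq, per the file headers) between samples. Build hg19 and the tools RSEM 1.2.12, HISAT2 2.0.4, DESeq 3.4 and Bowtie2 2.2.5 are listed, without roles, in the submitters' processing notes. No source used here gives the strand setting. The longest transcript length is the authors' deposited value. FPKM is relative: a gene taking more reads lowers the others.

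Of 19280 lines, 14 without a gene ID were left out, and 2047 genes had no value above 0. 2 columns with the same heading were not used. Replicate column 1 of a siRNA sample was taken as 2 times the mean minus column 2. limma 3.58.1 (R 4.3.3, with a trend) compared log2(FPKM + 1) of the sample means for genes reaching 1 FPKM in any sample, with 1 residual and 5.16 prior degrees of freedom. The lone control is assumed to vary like the siRNA samples. The p-values draw on the gap between the 2 siRNA samples, which differ in siRNA, and on the spread of all genes. On simulated data with 200 of 12078 genes changed, 43.5% of log2 changes of 1 and 98.1% of 2 were found, with 7% false calls. Each replicate column was estimated to hold between 18000000 and 18700000 reads, at which 88.6% to 92.7% of low values of short genes fell within 0.2 reads of a whole number. The 10 members and all lists were chosen with earlier results of these data known. Named genes were the members, DLX5, list genes past the test (otherwise the 2 most abundant) and the 3 nearest to PMAIP1. Genes named outside this rule are marked as chosen after their values were seen, and some that it names are not reported here. Alternatives were a pseudocount of 0.1, no filter, quantile normalization, replicate columns as separate values, an adjusted p under 0.10, other forms of the ratio, and leaving out each siRNA.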

Additional observations from a re-analysis of the deposited data

Results flagged for a closer look

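The 2 siRNAs differed from each other, over replicate columns, for 4 of the 9 members tested (limma, siRNA2 minus siRNA1, on log2(FPKM + 1), adjusted over all genes). BCL2 was higher with siRNA2 by 0.60 ± 0.09 (SE, adjusted p = 6.45e-04). BCL2L1 was lower by -0.55 ± 0.05 (adjusted p = 3.73e-05), MCL1 by -0.51 ± 0.04 (adjusted p = 8.82e-06) and BAX by -0.22 ± 0.04 (adjusted p = 0.00166). Each siRNA is 1 sample, so this spread is that between columns of a sample. By the same test 21.1% of all genes were lower and 19.4% higher, so the count of members is near the share of all genes. Differences between the siRNAs and between the samples cannot be told apart.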

How the results depend on the processing

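Of all genes, 373 passed the test (171 higher and 202 lower, 2359 at an unadjusted p under 0.05). Without the filter on low FPKM none passed in limma (0, with 2444 unadjusted), and after quantile normalization 22 passed. At an adjusted p under 0.10, 833 did. With replicate columns as separate values, whose spread is within samples, 7524 of 12078 did (3932 higher and 3592 lower). None of the members passed (0, with 3 unadjusted), also with a pseudocount of 0.1, without the filter and after quantile normalization. At an adjusted p under 0.10 PMAIP1 passed (1 member), and with replicate columns 7 did, 1 higher (BAK1) and 6 lower. The log2 fold change of BBC3 turned from -0.04 to 0.0043 after quantile normalization, both far inside their SE. Without siRNA1 or without siRNA2 the values of BCL2 ran from -0.49 to 0.10, of BCL2L1 from -0.74 to -0.19 and of MCL1 from -1.05 to -0.54, while the other 6 stayed within their SE. The pro-survival to pro-death ratio of the 10 members, relative to the control, was 0.775 with siRNA1 and 0.597 with siRNA2. As a geometric mean it was 0.953 and 0.900, and without MCL1 and BAX together 0.989 and 0.732. The cause of these differences was not tested. Reads per gene limit BBC3 and BCL2A1 most. No paired analysis was possible because the control has 1 sample.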
